A study of Mus musculus with 12 samples.

Results

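Syndecans are transmembrane proteoglycans that carry heparan sulfate chains, and the 4 genes of the family in the mouse, Sdc1 to Sdc4, were followed here across colon arrays from mice that ate quercetin, a plant flavonol, or a control diet. The members were all probe sets whose gene symbol in the array annotation is Sdc1, Sdc2, Sdc3 or Sdc4. That gave 12 probe sets of 4 genes, out of 22626 probe sets tested and 12393 genes named by a probe set of 1 symbol: 4 for Sdc1 (gene identifier 20969), 3 for Sdc2 (15529), 3 for Sdc3 (20970) and 2 for Sdc4 (20971). Sdc4 was chosen by its measured signal, for a difference between the 4 groups that is most marked on 1 of its probe sets, 1448793_a_at. Which pair of groups led to the choice is not recorded, so arrays of any group may have entered it. All Sdc4 values are therefore given as a description, with no test, and tests are given for Sdc1, Sdc2 and Sdc3.

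Through their heparan sulfate chains syndecans hold growth factors, chemokines and matrix proteins at the cell surface, and they act beside integrins and growth factor receptors as co-receptors. Their short cytoplasmic tails bind PDZ proteins such as syntenin, and in Sdc4 also protein kinase C alpha and alpha-actinin at focal adhesions. Metalloproteases cut the ectodomains off the cell surface. Sdc1 is the main syndecan of epithelia, the gut included, and also marks plasma cells. Sdc2 is known from mesenchymal cells, Sdc3 from nerve, and Sdc4 is found in most cell types.

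The series compared 4 groups of male mice aged 6 to 8 weeks: POR-null mice given quercetin, POR-null mice on control diet, wild-type (WT) C57BL/6 mice given quercetin, and WT mice on control diet. POR-null mice lack cytochrome P450 reductase, the electron donor of microsomal P450 enzymes. The labels used here do not give the promoter or cell type of the deletion; the line is known from the literature for a deletion in hepatocytes, and the deleted gene is not analysed here. All animals were first adapted for 14 days to the soya-free powdered RM3 diet, which the controls kept. Quercetin was then mixed into the feed at 6200 ppm, about 7 mg per mouse, and tissue was taken after 24 h. Each Affymetrix 430A array received RNA of the scraped epithelial layer of the colon pooled from 3 mice, and 3 arrays were made for each group, so that 9 mice stand behind a group and an array is a pool. Values are the deposited log2 signals, on which a step of 1 is a change by a factor of 2.

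The 12 arrays were alike in scale, with medians between 5.90 and 5.98 and pairwise correlations between 0.981 and 0.995. Epithelial markers (9 of 9 measured, among them Epcam and Krt20) averaged 11.56 to 11.78 on every array, so the labelled tissue was present throughout. Nerve and glia markers (5 of 7 measured) were also steady, at 4.96 to 5.20, and endothelial markers averaged 4.50 to 4.90. Markers of smooth muscle, acinar, B and plasma, fibroblast and macrophage cells varied far more than the epithelial ones. The 7 smooth muscle genes averaged 7.58 to 8.18 in POR-null quercetin arrays and 6.15 to 8.13 in POR-null control arrays, against 6.34 to 10.4 in WT quercetin arrays and 5.71 to 6.12 in WT control arrays. Pancreatic acinar genes (7 of 8 measured) averaged 10.1 on POR-null quercetin array 2 and 9.12 on WT control array 1, with 7.61 on WT control array 2, 7.21 on WT quercetin array 2 and 5.94 to 6.82 on the other arrays. Of the 6 endothelial markers, Tek, Emcn and Tie1 lay below the lower quartile of the signals in every array of all groups. Cdh5 did so in every array of the WT control group only, and Pecam1 and Esam in no group.

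The probe sets of Sdc4 did not move together. On 1448793_a_at the signal was 7.47, 7.39 and 7.15 in the 3 POR-null quercetin arrays, against 9.66, 8.54 and 8.54 in the 3 POR-null control arrays. In WT colon the same probe set read 9.92, 9.37 and 9.15 with quercetin, against 9.39, 7.71 and 7.83 on control diet. All POR-null quercetin arrays lay below every other array of the series. The WT groups overlapped through WT control array 1, which stood with the quercetin arrays while the other WT control arrays lay more than a log2 unit below it.

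The group means of 1448793_a_at were thus 7.34 ± 0.17 in POR-null quercetin, 8.91 ± 0.65 in POR-null control, 9.48 ± 0.40 in WT quercetin and 8.31 ± 0.94 in WT control arrays (SD, n = 3 each). In order from high to low these were WT quercetin, POR-null control, WT control and POR-null quercetin, and neighbours among the first 3 of these groups overlapped. The POR-null quercetin mean was 1.58 log2 units, or 2.98-fold, below the POR-null control mean, given as a description. Over all probe sets, 6.75% had POR-null groups that did not overlap, and 3.27% did so with quercetin lower. Against WT arrays on the same diet, the POR-null mean differed by -2.14 log2 units with quercetin, with no overlap, and by 0.60 on control diet, with overlap. The control diet value rested on single arrays: it was 1.14 without WT control array 1, 0.30 without WT control array 2, 0.36 without WT control array 3, and leaving out POR-null control array 1 gave 0.23. On quercetin diet 6.82% of all probe sets had genotypes without overlap, 3.74% with POR-null lower.

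With quercetin the WT mean of 1448793_a_at was 1.17 log2 units, or 2.25-fold, higher than on control diet, again as a description. In this contrast 0 of the 12 syndecan probe sets had groups that did not overlap, against 9.31% of all probe sets. Over all probe sets 0% passed the threshold of 0.05 on the adjusted p of limma, a moderated linear model fitted to all probe sets, and 5.15% had an unadjusted p under 0.05. The difference was 1.71 when WT control array 1 was left out. That array also carried the highest acinar signal and the highest B and plasma cell markers of its group, and the part of these in the result was not tested.

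The other Sdc4 probe set, 1417654_at, gave 8.63, 8.49 and 8.40 in POR-null quercetin arrays, against 8.11, 8.33 and 8.81 in POR-null control arrays. It gave 8.52, 8.16 and 8.00 in WT quercetin arrays, against 8.31, 8.48 and 8.57 in WT control arrays. Every pair of groups overlapped, and the means were 8.51 ± 0.12, 8.42 ± 0.36, 8.23 ± 0.27 and 8.45 ± 0.13 for POR-null quercetin, POR-null control, WT quercetin and WT control arrays (SD, n = 3 each). The quercetin difference was 0.09 in POR-null colon and -0.23 in WT colon. The sign was thus opposite to that of 1448793_a_at in both genotypes.

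**Figure D1:**
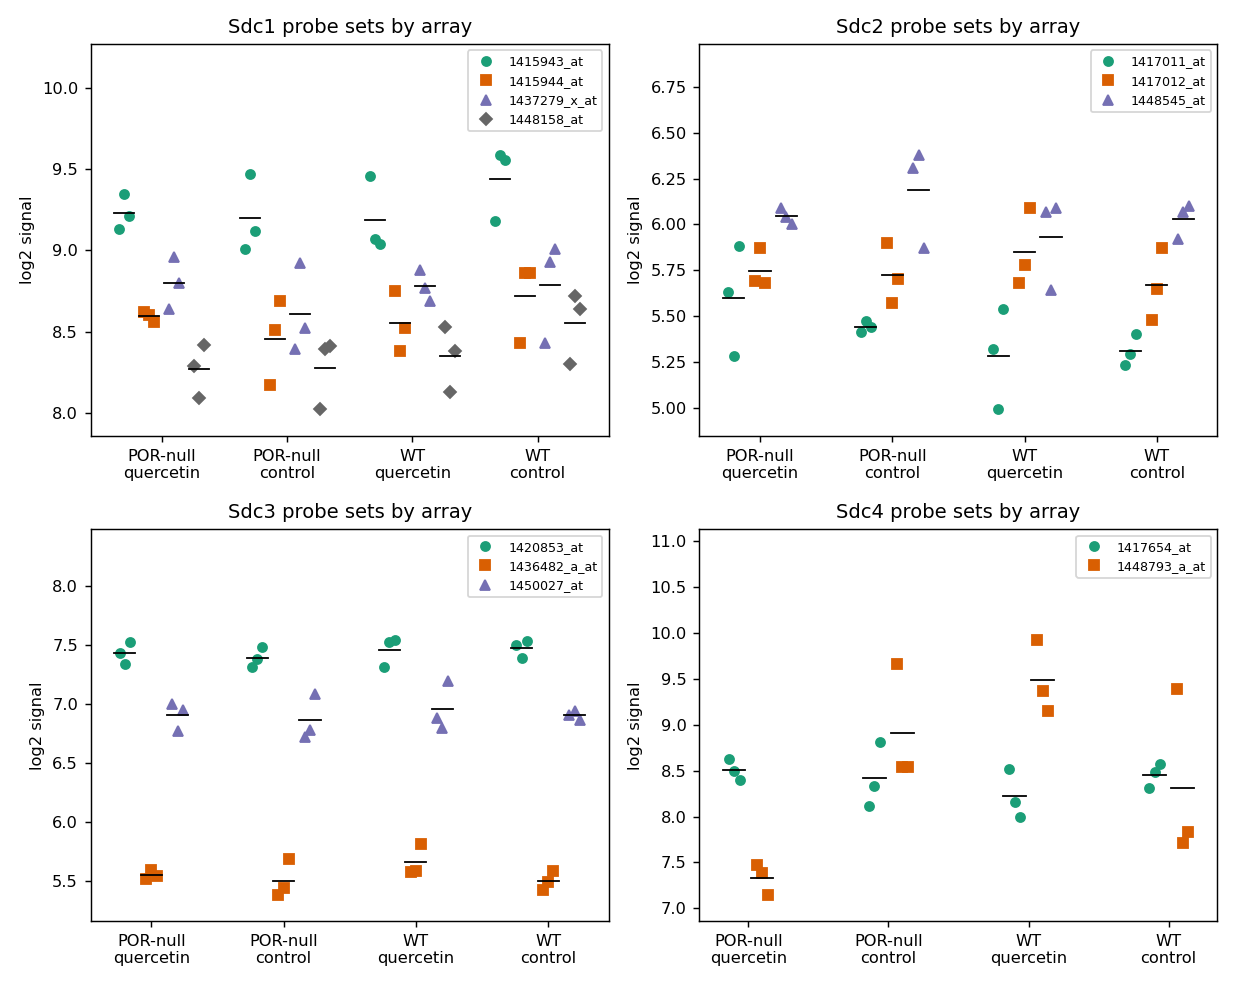
Deposited log2 signal (vertical axes) of each syndecan probe set on each of the 12 arrays, by group; a marker is 1 array, a bar the mean of 3 arrays, and each panel has its own scale. The Sdc4 probe set 1448793_a_at lies between 7.15 and 7.47 in POR-null quercetin arrays and between 7.71 and 9.92 in the other arrays, while 1417654_at stays between 8.00 and 8.81.

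Over the 12 arrays 1448793_a_at ranged over 2.77 log2 units, a 6.82-fold span, and its SD of 0.98 ranked 86 among the 22626 probe sets. For 1417654_at the range was 0.81 and the SD 0.23. Pearson's correlation between the pair over the 12 arrays, which come from 4 groups and share no sample, was -0.49 (Spearman -0.41), and it was -0.28 for deviations from the group means. Both probe sets are assigned to the same transcript record in the array annotation, and the letters of their probes were not used here.

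The distance between the pair on each array shows the disagreement without any reading of their absolute levels. The signal of 1448793_a_at minus that of 1417654_at was -1.16, -1.10 and -1.25 in POR-null quercetin arrays, against 1.55, 0.21 and -0.27 in POR-null control arrays. It was 1.40, 1.21 and 1.15 in WT quercetin arrays, against 1.08, -0.77 and -0.74 in WT control arrays. Each quercetin group was tight, below every other array in POR-null colon and above every WT control array in WT colon, and both control groups were spread widely, with POR-null control array 1 the highest of all. The WT quercetin mean lay 1.40 log2 units above the WT control mean (1.25 ± 0.13 against -0.14 ± 1.06, SD, n = 3 each). These groups parted narrowly, at 1.15 against 1.08. In POR-null colon the difference was -1.67 (-1.17 ± 0.08 with quercetin against 0.50 ± 0.94 on control diet), also with no overlap. Of single probe sets, 9.31% had WT diet groups without overlap and 6.75% had POR-null ones. The share for distances between probe sets of other genes is not given here. Both differences are descriptions, since the disagreement of the probe sets was known when they were taken up.

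**Figure D2:**
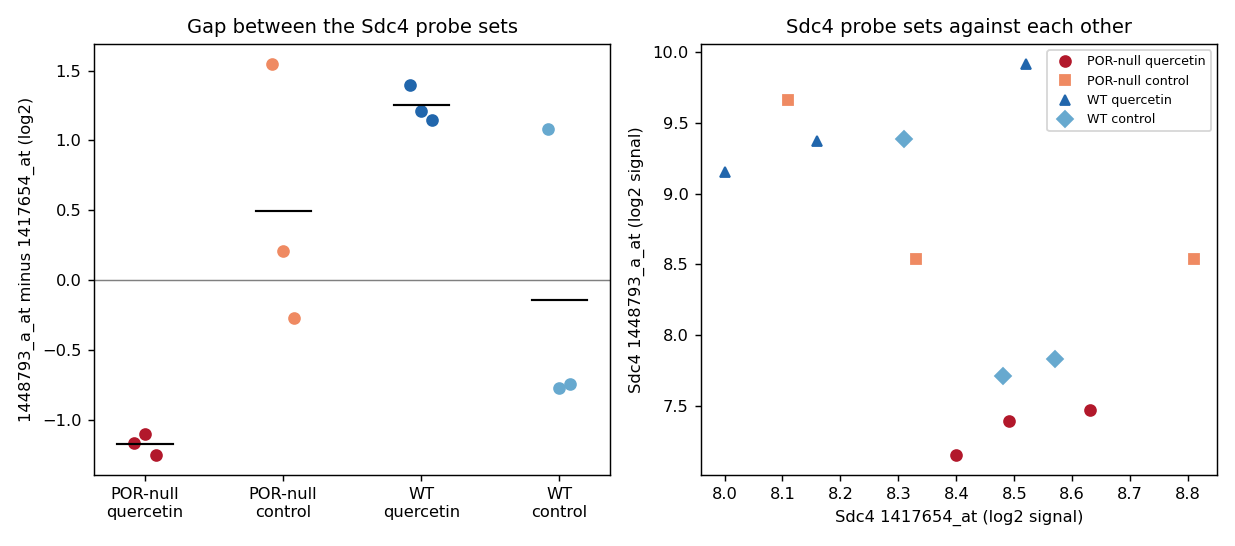
Left, the log2 signal of 1448793_a_at minus that of 1417654_at (vertical axis) on each array by group, with a bar at the mean of 3 arrays; right, 1448793_a_at (vertical axis) against 1417654_at (horizontal axis), both in log2 signal, 1 marker per array. The distance is -1.25 to -1.10 in POR-null quercetin arrays and 1.15 to 1.40 in WT quercetin arrays, and the control arrays of both genotypes spread between -0.77 and 1.55.

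A spread of this size between probe sets of 1 gene was uncommon on these arrays. The quercetin differences of the Sdc4 pair lay 1.67 apart in POR-null colon, rank 3 among the 4956 genes with several probe sets. In WT colon they lay 1.40 apart, rank 13; both ranks describe a gene that was chosen for its values. Over those genes the median range was 0.12 in POR-null colon and 0.13 in WT colon. In POR-null colon the range was 0.20 for Sdc1, 0.30 for Sdc2 and 0.01 for Sdc3, above 74.3%, 91.1% and 2.18% of those genes. In WT colon it was 0.24, 0.28 and 0.17 in the same order, above 79.0%, 85.1% and 63.1%. The mean of the pair on each array would have given -0.74 for Sdc4 in POR-null colon, a value that neither probe set showed.

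Cell markers were set beside these values, because the samples are bulk tissue in which fewer cells of a type and less RNA per cell cannot be told apart. B and plasma cell genes (6 of 8 measured) averaged 6.74, 6.32 and 7.16 in POR-null quercetin arrays, against 8.06, 7.17 and 6.82 in POR-null control arrays. In WT colon they averaged 6.79, 8.04 and 7.24 with quercetin, against 7.48, 6.06 and 5.87 on control diet. In both control groups array 1 had the highest value of these markers and of 1448793_a_at, but WT quercetin array 1, which had the highest 1448793_a_at signal of all arrays, had the lowest B and plasma cell mean of its group. Array 1 of both control groups was also the highest of its group for fibroblast, macrophage and endothelial markers. For smooth muscle, nerve and acinar markers this held in the WT control group only, and for epithelial markers in neither. The part of any of these cells in the Sdc4 values was not tested.

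The promoters of Sdc4 and Sdc1, the syndecans known from epithelia, are shown so that a reader can see what lies before the start of each gene. The sequences are no account of why the Sdc4 probe sets disagree, which was not tested. They are the 250 bases before the annotated start, read 5′ to 3′ on the strand of the gene, from RefSeq on GRCm38.p6. Sdc4 lies on the minus strand with the window at chr2:164443189-164443438, and Sdc1 on the plus strand with the window at chr12:8771146-8771395. Capitals mark matches to the motifs searched.
Sdc4: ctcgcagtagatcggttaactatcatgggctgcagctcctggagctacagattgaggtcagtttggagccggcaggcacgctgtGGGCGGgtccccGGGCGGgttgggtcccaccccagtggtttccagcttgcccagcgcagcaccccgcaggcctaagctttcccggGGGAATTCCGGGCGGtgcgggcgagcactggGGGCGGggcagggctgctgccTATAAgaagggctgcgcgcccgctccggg
Sdc1: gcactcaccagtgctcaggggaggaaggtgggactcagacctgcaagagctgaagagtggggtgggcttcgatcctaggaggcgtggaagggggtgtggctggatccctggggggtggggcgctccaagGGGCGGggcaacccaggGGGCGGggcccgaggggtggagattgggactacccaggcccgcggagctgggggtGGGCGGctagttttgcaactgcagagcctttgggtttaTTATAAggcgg

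The motifs were searched on both strands, and were picked after the sequences had been read. The GC box GGGCGG, the letters that Sp1-type factors bind, occurred 4 times before Sdc4 and 3 times before Sdc1, and 32.7% of 32851 promoter windows of the same length held it. TATAA, the core of a TATA box, occurred once before Sdc4, and as 2 overlapping matches on opposite strands before Sdc1, with a share of 22.8% over all windows. GGGAATTCC, a form of the sequence that NF-κB binds, lay directly before a GC box of Sdc4 and had no match before Sdc1, with a share of 0.21%. TGACTCA, the letters of an AP-1 site, had no match in either and a share of 4.46%. The bases were 68% G or C before Sdc4 and 66% before Sdc1, against 53.2% over all windows. Of the 4 syndecans 3 had a window, and that of Sdc3 held 3 GC boxes and none of the other motifs. A match describes the letters and is no evidence of binding.

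None of the 4 Sdc1 probe sets passed the test in any contrast. The probe set 1415943_at read 9.13, 9.35 and 9.21 in POR-null quercetin arrays, against 9.01, 9.47 and 9.12 in POR-null control arrays. It read 9.46, 9.07 and 9.04 in WT quercetin arrays, against 9.18, 9.59 and 9.56 in WT control arrays. Both pairs of groups overlapped, and no group of 3 arrays stood apart.

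The 4 Sdc1 probe sets went together over the arrays, with pairwise correlations of 0.49 to 0.85. Quercetin minus control was 0.03, 0.14, 0.19 and -0.01 in POR-null colon for 1415943_at, 1415944_at, 1437279_x_at and 1448158_at (limma adjusted p of 1.00 for each). In WT colon the same differences were -0.25, -0.17, -0.01 and -0.21 (limma adjusted p between 0.957 and 0.995). The 95% intervals of the Sdc1 probe sets together reached from -0.33 to 0.54 in POR-null colon and from -0.58 to 0.34 in WT colon, without adjustment for the number of probe sets.

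Between genotypes on control diet all 4 Sdc1 probe sets had the lower mean in POR-null colon, by 0.24, 0.26, 0.18 and 0.28 log2 units in the same order. The smallest unadjusted p of limma was 0.0834, and the adjusted p lay between 0.769 and 0.864. On quercetin diet the genotype differences were between -0.08 and 0.04 (limma adjusted p of 0.998). The quercetin difference in POR-null colon minus that in WT colon was 0.20 to 0.30 for the 4 probe sets, also short of the threshold (limma adjusted p of 0.998). Since these probe sets measure 1 transcript on the same arrays, their common sign is not 4 observations.

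The 3 Sdc2 probe sets went together little, with correlations of 0.06 to 0.42. The probe set 1417011_at read 5.63, 5.28 and 5.88 in POR-null quercetin arrays, against 5.41, 5.47 and 5.44 in POR-null control arrays. In WT colon it read 5.32, 4.99 and 5.54 with quercetin, against 5.23, 5.29 and 5.40 on control diet. On control diet each POR-null array lay above each WT array, by narrow margins.

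That was 1 of the 10 probe sets of Sdc1, Sdc2 and Sdc3 whose genotype groups did not overlap on control diet, where 9.67% of all probe sets had groups without overlap and 4.81% did so with POR-null higher. The share is near that background. Its difference there was 0.13 (SE 0.15, limma adjusted p = 0.904). On quercetin diet the same probe set was 0.31 higher in POR-null colon (SE 0.15), with overlap and with an unadjusted p of 0.0623 and an adjusted p of 0.998 by limma. The other Sdc2 probe sets differed by -0.10 for 1417012_at and 0.11 for 1448545_at in this contrast.

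Quercetin minus control for the Sdc2 probe sets 1417011_at, 1417012_at and 1448545_at was 0.16, 0.02 and -0.14 in POR-null colon, and -0.02, 0.18 and -0.10 in WT colon. The 3 probe sets did not share a sign in either genotype. The limma adjusted p was 1.00 for each in POR-null colon and at least 0.958 in WT colon, and the 95% intervals together spanned -0.46 to 0.49 and -0.41 to 0.48.

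Sdc3 was the steadiest of the family. Its probe set 1420853_at read 7.43, 7.34 and 7.52 in POR-null quercetin arrays, against 7.31, 7.38 and 7.48 in POR-null control arrays. In WT arrays it read 7.31, 7.52 and 7.54 with quercetin, against 7.50, 7.39 and 7.53 on control diet. All 12 values lay within 0.23 log2 units of each other, and 11.4% of all probe sets had a lower SD over the arrays.

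Quercetin minus control for the Sdc3 probe sets 1420853_at, 1436482_a_at and 1450027_at was 0.04, 0.05 and 0.05 in POR-null colon, and -0.02, 0.16 and 0.05 in WT colon. The 95% intervals together ran from -0.22 to 0.32 in POR-null colon and from -0.22 to 0.38 in WT colon, the narrowest of the 3 genes tested. Genotype differences lay between -0.11 and 0.00 on either diet. Correlations among the 3 probe sets were 0.47 to 0.71.

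Over Sdc1, Sdc2 and Sdc3 the 5 contrasts gave 50 tests, of which 0 passed the adjusted threshold of limma and 0 had an unadjusted p under 0.05. The differences ran from -0.28 to 0.31 log2 units. Over all probe sets 0% passed the adjusted threshold in every one of these contrasts, and an unadjusted p under 0.05 was reached by 2.82% for quercetin in POR-null colon, 5.15% for quercetin in WT colon, 6.79% for genotype on control diet, 2.39% for genotype on quercetin diet and 4.74% for the interaction. The intervals given above are not adjusted for the number of probe sets and are no limit of detection. With 3 arrays a group, larger differences also missed the adjusted threshold, such as 1.21 for Srgn in WT colon (limma adjusted p = 0.957).

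**Figure D3:**
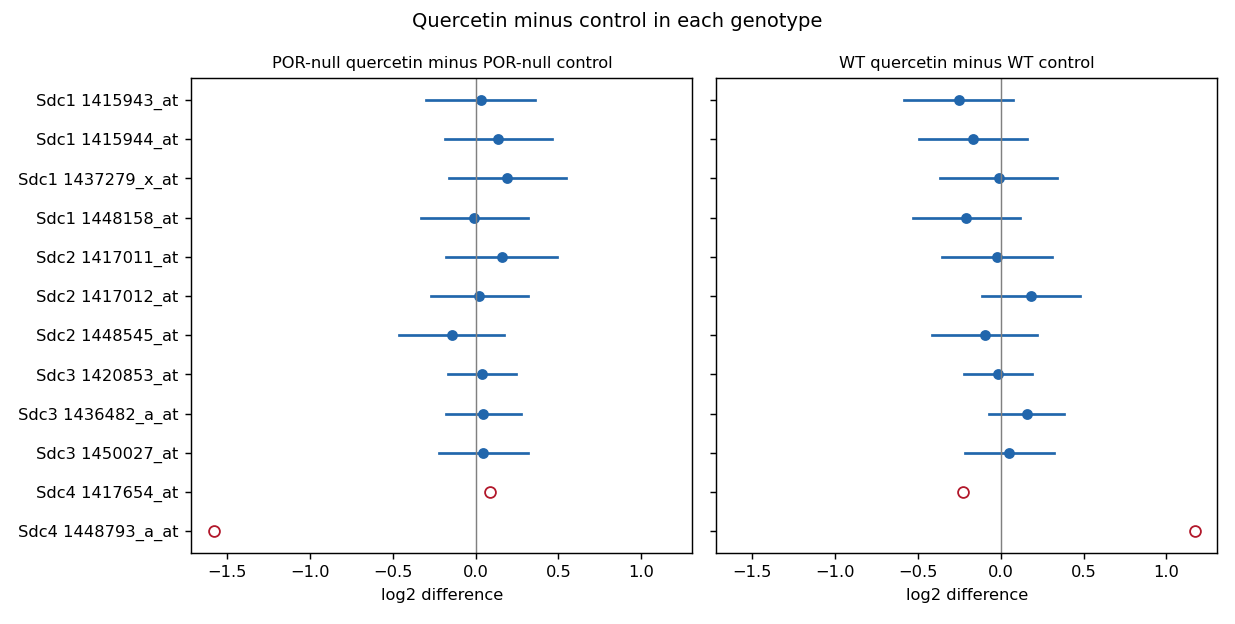
Quercetin minus control in log2 units (horizontal axes) for each syndecan probe set in POR-null colon (left) and WT colon (right); filled points carry the 95% interval of the limma fit, and open circles are the Sdc4 differences, drawn without an interval because the gene was chosen for its values. Sdc4 1448793_a_at lies at -1.58 in POR-null colon and 1.17 in WT colon, and the intervals of Sdc1, Sdc2 and Sdc3 include 0 in both genotypes.

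The genes whose pattern was most like each probe set were taken as the 3 with the highest Pearson correlation over the 12 arrays, as a description. For Sdc4 1448793_a_at these were Zfp40 (0.89), a zinc finger gene with a mean signal of 3.06 on a scale that begins at 2.7, then Sys1 (0.86), whose product works in Golgi traffic, and Bnip2 (0.85), which encodes a BCL2-interacting protein. For the other 11 syndecan probe sets the first gene reached 0.88 to 0.95, so that 0.89 was within what a search over all genes returned here. The second Sdc4 probe set, 1417654_at, was most like Slc12a7 (0.91), Pgap6 (0.89) and Abcc10 (0.89), with no gene in common with the first.

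Sdc1 1415943_at was most like the tight junction gene Cldn2 (0.93), the homeobox gene Hoxb9 (0.92) and Tex261 (0.91), and Sdc1 1448158_at was most like Usp22 (0.94), Gpa33 (0.94), which encodes an antigen of the intestinal epithelial surface, and Ptdss2 (0.93). Sdc1 1415944_at was led by Arhgap5, and Cldn3, another claudin, was among its first 3. Sdc1 1437279_x_at was led by Pi15. The first genes were Wbp1l, Cep57l1 and Zyg11b for the Sdc2 probe sets 1417011_at, 1417012_at and 1448545_at, and Kif5c, Wasl and Igbp1 for the Sdc3 probe sets 1420853_at, 1436482_a_at and 1450027_at.

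Sys1 is the next protein-coding gene to Sdc4 on chromosome 2 in the RefSeq order of GRCm38.p6, which drew attention to the neighbourhood after the values were seen. Its probe set 1450057_at read 6.49, 6.40 and 6.41 in POR-null quercetin arrays, against 6.84, 6.65 and 6.73 in POR-null control arrays. In WT arrays it read 6.93, 6.77 and 6.68 with quercetin, against 6.65, 6.55 and 6.74 on control diet. The POR-null groups did not overlap and the WT groups did. The quercetin difference was -0.31 in POR-null colon and 0.15 in WT colon, the same signs as for 1448793_a_at at a much smaller size; no test is given because the gene was found by its likeness to Sdc4.

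The other Sys1 probe sets did not follow, with correlations to Sdc4 1448793_a_at of -0.24 for 1420958_at and 0.20 for 1438206_a_at. Among the 10 protein-coding genes on each side of Sdc4, 14 were measured by 22 probe sets. The 21 apart from Sys1 1450057_at had correlations of -0.51 to 0.62 with 1448793_a_at. Their quercetin differences stayed between -0.23 and 0.21 in POR-null colon and between -0.22 and 0.21 in WT colon. Several lay near the floor of the scale, which begins at 2.7. Mean signals were 3.05 for Svs6, 3.66 for Svs4 and 3.38 for the Svs5 probe set with the correlation of 0.62. Others lay well above it, such as Wfdc2 at 10.1 and Pigt at 7.44. Probe sets near the floor cannot show whether their genes followed Sdc4.

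**Figure D4:**
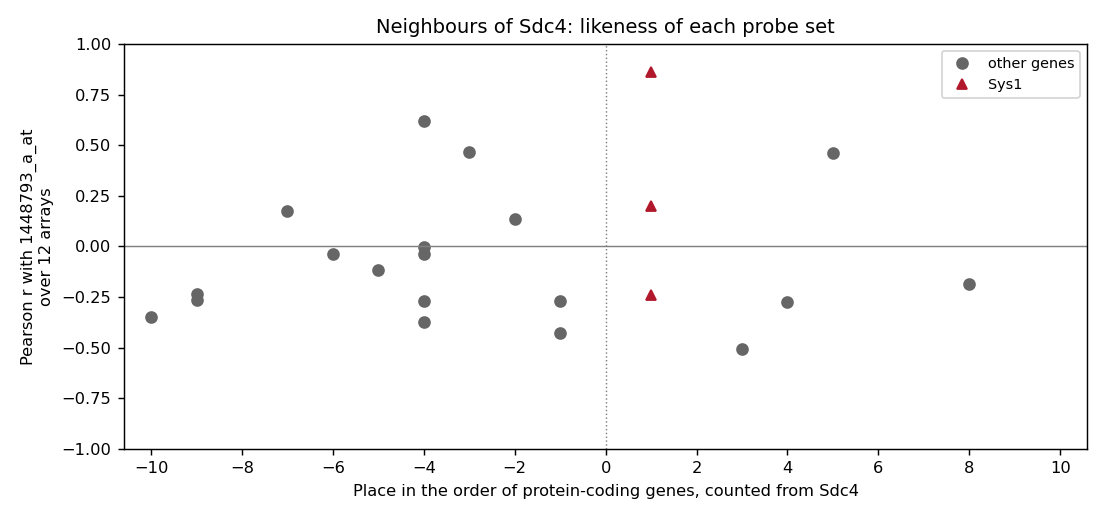
Pearson correlation over the 12 arrays between Sdc4 1448793_a_at and each probe set of the neighbouring protein-coding genes (vertical axis), by the place of the gene counted from Sdc4 (horizontal axis); triangles are Sys1, circles the other genes. One Sys1 probe set lies at 0.86, and the 21 others lie between -0.51 and 0.62.

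The genes that build, carry, cut and use the heparan sulfate of syndecans were taken from 8 lists with 133 genes, of which 118 were measured, each by its probe set of the highest mean. In every contrast 0 of the 118 passed the adjusted threshold of limma. An unadjusted p under 0.05 was reached by 7 genes for quercetin in POR-null colon, 1 higher and 6 lower, against 2.82% of all probe sets, 291 higher and 346 lower. In WT colon it was reached by 10 genes, 8 higher and 2 lower, against 5.15% of all probe sets, 725 higher and 440 lower. The medians of the 118 genes were -0.02 in POR-null colon and 0.01 in WT colon, against 0.01 and 0.00 for all probe sets.

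Chain synthesis (26 of 32 genes measured) had median quercetin differences of 0.00 in both genotypes. The genes named by their highest mean signal were Ugdh, which makes the UDP-glucuronate of the chains, and Papss2 and Papss1, which make the sulfate donor. Ugdh differed by 0.14 in POR-null colon and by -0.31 in WT colon, where it averaged 10.97 ± 0.10 with quercetin and 11.28 ± 0.53 on control diet (SD, n = 3 each). For Papss2 the differences were 0.11 in POR-null colon and -0.26 in WT colon, and for Papss1 they were 0.10 and 0.00. Ext1, which encodes a polymerase of the chain and was named after its value was seen, was 0.34 lower in POR-null colon with an unadjusted p of 0.0203 (limma adjusted p of 1.00). In WT colon Ext1 differed by 0.12.

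Enzymes that edit or break down the chains (7 of 11 genes measured) had medians of -0.07 in POR-null colon and -0.11 in WT colon. The lysosomal iduronidase Idua differed by 0.04 and -0.21, the lysosomal acetyltransferase Hgsnat by -0.10 and 0.04, and the extracellular sulfatase Sulf2 by -0.15 and -0.23, the POR-null value first. None of the 7 had an unadjusted p under 0.05 in either genotype by limma.

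Other proteoglycans (10 of 12 genes measured) included perlecan (Hspg2), agrin (Agrn) and glypican 4 (Gpc4), which differed by 0.12, 0.06 and -0.19 in POR-null colon and by 0.17, -0.07 and 0.07 in WT colon. Srgn, the proteoglycan of the granules of blood cells, differed by -0.86 in POR-null colon. In WT colon it averaged 6.69 with quercetin and 5.48 on control diet, a difference of 1.21 (SE 0.52, unadjusted p = 0.0360 by limma, adjusted p = 0.957). The B and plasma cell markers given above, and macrophage markers with a median WT difference of 0.34, were also higher with quercetin by group mean. For both, WT control array 1 lay above some WT quercetin arrays. The part of these cells in the Srgn value was not tested.

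The cytoplasmic partners were measured in full (19 of 19 genes), with medians of -0.02 in POR-null colon and -0.04 in WT colon. Actn4, an alpha-actinin, the small GTPase Rac1 and the syntenin Sdcbp2 had the highest signals, and differed by -0.15, -0.04 and 0.06 in POR-null colon and by 0.10, -0.08 and -0.17 in WT colon. Prkca, the kinase that the Sdc4 tail binds, averaged 7.27 with quercetin and 7.67 on control diet in WT colon, a difference of -0.40 (SE 0.13, unadjusted p = 0.0102 by limma, adjusted p = 0.952). It was named here after its value was seen, as were Src and Fyn, kinases of the syndecan tail, at -0.28 and 0.49 in WT colon. In POR-null colon Prkca, Src and Fyn differed by -0.18, -0.09 and -0.23.

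Shedding proteases and their inhibitors (12 of 12 genes measured) had medians of -0.07 in POR-null colon and 0.10 in WT colon. The sheddase Adam10 differed by -0.07 and 0.12, the inhibitor Timp2 by 0.23 and 0.24, and matrilysin (Mmp7) by -0.08 and -0.07, the POR-null value first. Timp3, an inhibitor of such sheddases that was named after its value was seen, averaged 6.37 with quercetin and 5.65 on control diet in WT colon, with a difference of 0.71 (SE 0.18) and the smallest unadjusted p of the 118 genes in that contrast, 0.00180, yet an adjusted p of 0.948 by limma. In POR-null colon Timp3 differed by -0.07. Fibroblast markers (8 of 8 measured) had a median WT difference of 1.04 and smooth muscle markers one of 2.60. Their part in the Timp3 value of WT colon was not tested.

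Ligands that bind heparan sulfate (18 of 20 genes measured) had medians of 0.01 in POR-null colon and 0.05 in WT colon. The chemokine Ccl5 differed by 0.35 in POR-null colon and 0.59 in WT colon, fibronectin (Fn1) by -0.27 and 1.11, and Vegfa by -0.10 and 0.05. Fn1 averaged 8.04 ± 1.03 in WT quercetin arrays and 6.93 ± 0.58 in WT control arrays (SD, n = 3 each; limma adjusted p = 0.957). Tenascin C (Tnc), named after its value was seen, was 1.18 higher in WT colon (limma adjusted p = 0.948) and 0.16 higher in POR-null colon. Both are products of stromal cells, whose markers moved as given above, and the part of those cells was not tested.

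Integrins and growth factor receptors beside which syndecans act (16 of 16 genes measured) had medians of -0.03 in POR-null colon and 0.03 in WT colon. The epithelial laminin receptor subunit Itga6 differed by -0.13 and -0.17, Itgb1 by -0.05 and 0.04, and Itgb5 by 0.00 and 0.14, the POR-null value first. Itgav, Itgb4 and Itgb3, named after their values were seen, differed by -0.33, -0.25 and 0.22 in POR-null colon. Their unadjusted p by limma was 0.0131, 0.0345 and 0.0409, and none passed the adjusted threshold. In WT colon they differed by 0.13, 0.06 and -0.10. NF-κB is a pathway known to raise Sdc4 transcription in mouse heart cells. Its list (10 of 11 genes measured) had medians of -0.09 in POR-null colon, with 3 genes higher and 7 lower, and 0.07 in WT colon, with 7 higher and 3 lower. Nfkbia, the inhibitor and early target of the pathway, averaged 10.56 ± 0.09 with quercetin and 10.28 ± 0.13 on control diet in WT colon (difference 0.28, SE 0.09, limma adjusted p = 0.952). In POR-null colon Nfkbia differed by 0.04, and the subunits Rela and Relb by -0.11 and -0.03, against 0.22 and 0.04 in WT colon. Icam1 and Cebpb, named after their values were seen, differed by -0.42 and -0.17 in POR-null colon and by 0.29 and -0.29 in WT colon.

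**Figure D5:**
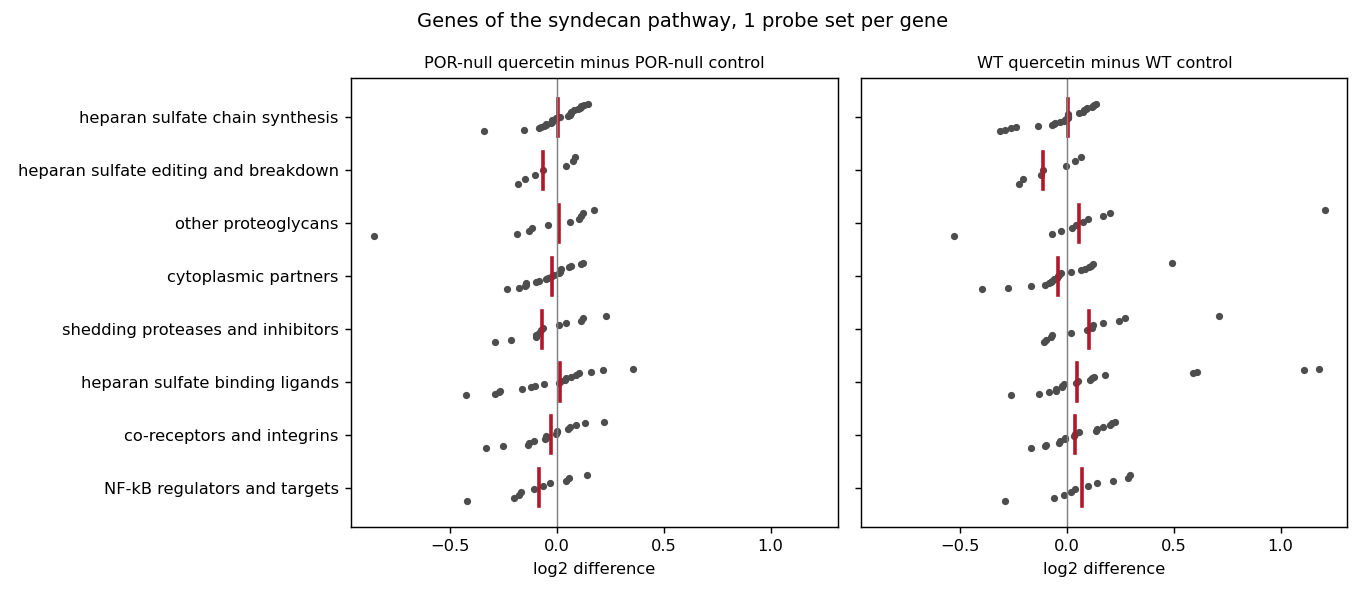
Quercetin minus control in log2 units (horizontal axes) for the 118 measured genes of the 8 lists in POR-null colon (left) and WT colon (right); a dot is 1 gene and a red bar the median of its list. The list medians lie between -0.09 and 0.01 in POR-null colon and between -0.11 and 0.10 in WT colon. Single genes such as Srgn at 1.21 and Tnc at 1.18 stand out in WT colon, and Srgn at -0.86 in POR-null colon.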

How the data were processed

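Expression was measured on 12 Affymetrix 430A arrays, 3 for each of 4 groups, with RNA of 3 mice pooled per array, per the labels. The table that the authors deposited entered without further normalization and was taken to hold log2 signal, since its values ran from 2.7 to 14.09. Per the submitters' processing notes MAS5 and RMA were used; which of them made the values, and in what version, was not given in the sources used here. After 64 control probe sets were left out, 22626 probe sets were tested, with no filter on signal. Of these, 20380 had 1 gene symbol in the array annotation, 691 had several and 1555 had none. The comparisons were made in R 4.3.3 with limma 3.58.1 (lmFit with 4 group means over all 12 arrays, eBayes with a trend, 8 residual and 12.91 total degrees of freedom), with Benjamini-Hochberg adjusted p-values over the probe sets of each of 5 contrasts. The steps were tested on simulated data. Deviations of arrays with equal replicate numbers correlated between 0.11 and 0.26 for the control groups of the 2 genotypes, where the numbers may pair the arrays and the replicate block left 0 probe sets past the threshold; in each other pair of groups at least 1 correlation was below 0.1, the lowest -0.19. The genes named from each list were the 3 with the highest mean signal, and others are marked as named after their values were seen. Alternatives changed the trend, array weights, signal filter, normalization, replicate block, arrays in the fit, single arrays and arrays with acinar signal. The members and lists were chosen with earlier results of these data known. The number of arrays limits the precision.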

Additional observations from a re-analysis of the deposited data

Results flagged for a closer look

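The quercetin difference of Sdc4 1448793_a_at in POR-null colon minus that in WT colon was -2.75 log2 units, because each POR-null quercetin array lay below the mean of its control arrays and each WT quercetin array lay above the mean of its own. The difference between the genotypes was not tested, since the gene was chosen for its group values. For the second Sdc4 probe set, 1417654_at, the same quantity was 0.32.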

How the results depend on the processing

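Tests of Sdc1, Sdc2 and Sdc3 past the adjusted threshold numbered 0 under every alternative run, and list members past it numbered 0 with every probe set of a gene. Sdc4 1448793_a_at in WT colon lay between 0.87 and 1.71. The distance between the Sdc4 probe sets in WT colon lay between 1.08 and 2.01 with single arrays left out. In POR-null colon 1448793_a_at lay between -1.76 and -1.20 with single arrays left out, and the mean of its pair gave -0.74. Probe sets past the threshold over the whole array numbered 0 in each contrast of the fit. For quercetin in WT colon, array weights gave 2 and single arrays left out 0 to 3, the most without WT quercetin array 1; for quercetin in POR-null colon single arrays left out gave 0 to 1, the 1 without POR-null quercetin array 1. For genotype on control diet array weights gave 399, leaving out both arrays of high acinar signal 46, and single arrays left out 0 to 41, the most without WT control array 1. For genotype on quercetin diet the replicate block gave 1 and a fit of only the compared arrays gave 1. In both cases this was Sdc4 1448793_a_at, which was chosen for its values, so the call is no test of that gene. Single arrays left out gave 0 to 1, as for the interaction, in both contrasts the 1 without array 1 of either quercetin group. Otherwise the block changed no count. Differences of Sdc1, Sdc2 and Sdc3 near 0 changed sign: Sdc1 1437279_x_at in WT colon was 0.0235 after quantile normalization, and in POR-null colon Sdc1 1415943_at was -0.13 with array weights and -0.03 without the acinar arrays, Sdc1 1448158_at was 0.0333 after quantile normalization and 0.0817 without the acinar arrays, and Sdc2 1417012_at was -0.0383 without the acinar arrays. With single arrays left out the WT ranges were -0.19 to 0.10 for 1437279_x_at, -0.15 to 0.12 for 1417011_at, -0.18 to 0.05 for 1448545_at, -0.0583 to 0.0567 for 1420853_at and -0.065 to 0.14 for 1450027_at. The POR-null ranges were -0.065 to 0.17 for 1415943_at, -0.0067 to 0.25 for 1415944_at, -0.13 to 0.0817 for 1448158_at, -0.0533 to 0.11 for 1417012_at, -0.005 to 0.085 for 1420853_at, -0.0133 to 0.14 for 1436482_a_at and -0.0233 to 0.16 for 1450027_at. Among 21 further genotype and interaction differences of these genes, 43 of 303 alternative values changed sign, between -0.12 and 0.11. The cause was not tested. With 3 pools a group, small differences cannot be detected, and the scale of the deposited values was inferred from their range.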
